A study of Homo sapiens with 20 samples.

Results

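The MYC and PVT1 locus was examined here as all H3K4me3 peaks that overlap chromosome 8, 127500000 to 129200000 (GRCh37), in band 8q24.21. The 10 peak lists held 170 such peaks of 306884 in all, and merging peaks within 1000 bp placed them in 21 of 31428 regions. The window was chosen by 2 gene starts, those of MYC (128748315) and PVT1 (128806779), and by a region 904 kb before MYC (127840458 to 127847405) that had been picked on its absence from both drug-treated groups. The values of that upstream region in the drug groups and the parental group are therefore a description without a test. The rule itself used no values of the other regions. Distances are from the centre of a region to a gene start.

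MYC encodes a transcription factor that drives growth and proliferation genes, and its transcription and protein stability respond to ERK signalling, the pathway that mutant BRAF keeps active in melanoma. PVT1, the next gene on the same strand, is a long noncoding RNA gene that also hosts several microRNAs, and elements around and inside it are known to act on MYC. Before MYC lies a long stretch with few protein-coding genes that is known for distal enhancers and noncoding RNAs. In the RefSeq gene order of GRCh38.p14 the protein-coding genes before MYC are LRATD2 and POU5F1B, with PCAT1, PCAT2, PRNCR1, CASC19, CCAT1, CASC21, CASC8, CCAT2 and CASC11 among the noncoding genes between LRATD2 and MYC. Only the starts of MYC and PVT1 could be placed on the build of the peak lists, so the other regions carry no gene name here, and the melanoma label was not checked against marker genes. H3K4me3, trimethylation of lysine 4 on histone H3, sits at active promoters, and broad stretches of it are found at highly active genes.

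All libraries came from WM164, a human melanoma line with mutant BRAF, with 2 libraries in each group. Parental cells had received DMSO for 3 days. Colony cells had been kept for 45 days in 50 nM of the BRAF inhibitor dabrafenib, renewed every 3 days, and resistant cells for over 90 days. GFP and NRAS Q61K cells carried green fluorescent protein or an activated RAS protein and had no listed drug. The sources used here do not say how those cells were made, whether they were clones or pools, or whether the replicates are separate cultures; p-values therefore measure only the spread between these libraries, which may be technical.

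The lists differed in ways that bear on every count below. Drug-treated libraries held 19111 to 21573 peaks on the autosomes and X, and the other libraries 29258 to 45376. The shortest peak, which depends on the fragment length, was 255 to 284 bp in the drug-treated libraries and 142 to 202 bp in the others. The weakest called peaks had an implied summit height of 13 to 15 reads in the drug-treated libraries and 9 to 13 reads in the others, and the median implied background at called summits was 4.11 to 4.95 and 2.96 to 5.27 reads. Inside the locus the median background was 4.95 reads at the 29 drug-treated peaks and 4.34 reads at the 141 others. Values from lists cut to equal length are given where they change a result, and the part of fragment length and depth was not tested. In bulk chromatin, fewer cells with the mark and less of the mark per cell cannot be told apart.

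Fewer H3K4me3 peaks, the upstream region included, were listed at the locus in drug-treated cells, and the broad domains at MYC and PVT1 were among those kept. Parental libraries had 19 and 24 peaks in the window, GFP libraries 24 and 28, and NRAS Q61K libraries 23 and 23. Colony libraries had 9 and 9, and resistant libraries 6 and 5. With the upstream region counted, drug-treated and other libraries thus did not overlap in number. As a share of each library's own list the locus held 0.0262% to 0.0420% of peaks in drug-treated libraries against 0.0566% to 0.0798% in the others. Cut to lists of equal length, the means were 10.5 peaks in the parental pair, 8 in the colony pair, 5.5 in the resistant pair, 8 in GFP and 7.5 in NRAS Q61K cells, so the lower count in colony than in transgene cells did not hold there. Bases under peaks in the window were 28864 and 26421 in the parental pair, 19252 and 19648 in the colony pair, 17387 and 17071 in the resistant pair, 27951 and 28376 with GFP, and 29132 and 28041 with NRAS Q61K. As a share of all marked sequence this was 0.0475% to 0.0501% in drug-treated libraries and 0.0597% to 0.0650% in the others. The upstream region that chose the window is part of these totals. It holds 1 to 5 peaks and 4462 to 6775 bases in each untreated library and none in the drug-treated ones. The lower numbers of peaks and bases in drug-treated libraries, and their shares, are thus in part set by that choice. They are not read as a result. Totals and shares without that region are not given. With 2 libraries against 2 no exact permutation test can go below p = 0.333, and none was run on the totals.

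**Figure D1:**
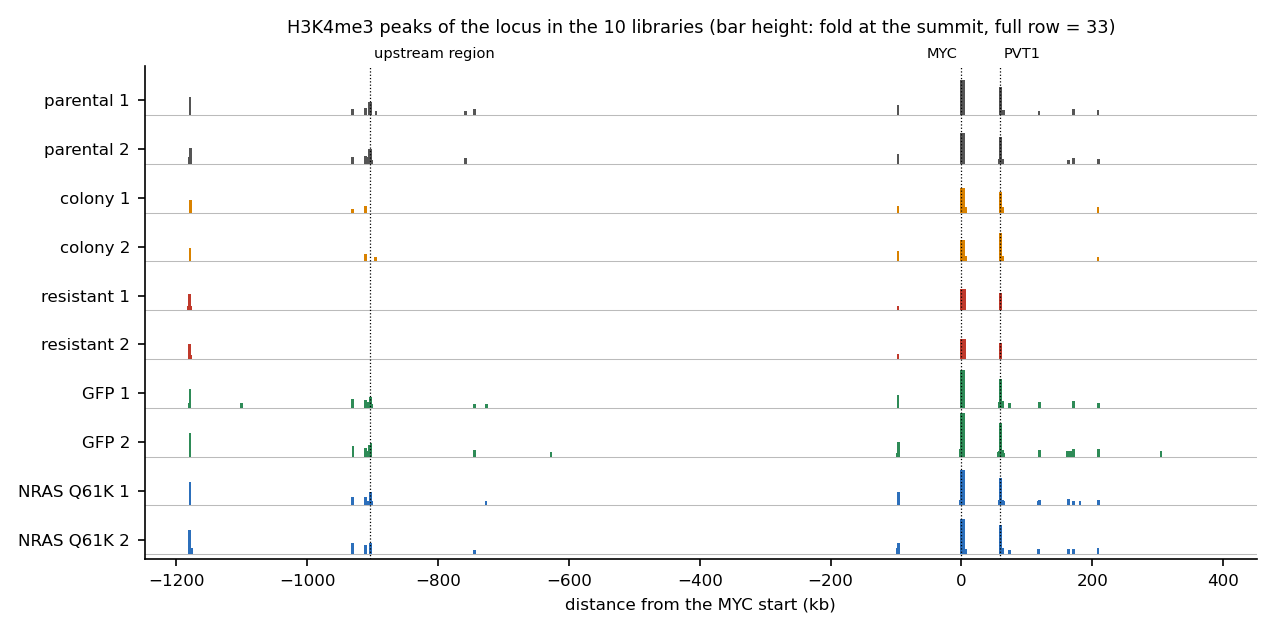
Peaks of each library across the window, by distance from the MYC start in kb; bar height is the authors' fold at the peak summit, and peaks shorter than 4 kb are drawn 4 kb wide to be visible. The large bars at MYC and PVT1 are present in all 10 libraries, while the drug-treated libraries have 5 to 9 peaks in all and no bar at the upstream region.

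Of the 21 regions, 4 were marked in all 10 libraries: one 1179 kb before MYC, one 97 kb before MYC, the MYC start and the PVT1 start. In resistant libraries these 4 were the only marked regions. Colony libraries had a peak in 8 regions. The other 13 regions were empty in all 4 drug-treated libraries, and 5 of those were seen in 1 library alone. Among the 13, 2 were marked in all 6 other libraries, the upstream region and a region 113 kb after the PVT1 start.

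The MYC start lay under a broad H3K4me3 domain in every library. Its region (128745977 to 128754986) had 7542 and 7643 bases under peaks in the parental pair, 8188 and 8710 in the colony pair, 8310 and 8225 in the resistant pair, 7855 and 8139 with GFP, and 8215 and 7878 with NRAS Q61K. Both parental libraries were thus the narrowest of the 10, and colony and resistant libraries overlapped. By covered bases the domain stood at the 97.4th to 99.1st percentile of the 12087 regions marked in all 10 libraries, in each library.

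The peak over the MYC start began 1788 to 2185 bp before it, and the far edge differed more between groups. The last marked base lay 5712 and 5761 bp after the start in the parental pair, 6488 and 6671 bp in colony, 6513 and 6430 bp in resistant, 5704 and 5864 bp in GFP, and 6147 and 6599 bp in NRAS Q61K libraries. The edge thus lay farther downstream in all 4 drug-treated libraries than in parental and GFP libraries, and NRAS Q61K libraries overlapped with the drug-treated ones. Marked bases after the start were 5738 ± 34.6 (SD, n = 2) in the parental pair, 6454 ± 101 in colony and 6473 ± 58.7 in resistant cells. Before the start they were 1855 ± 36.8, 1996 ± 268 and 1795 ± 1.41, so most of the added bases lay after the start. The shortest peak of the lists was also longer in drug-treated (255 to 284 bp) than in parental libraries (180 and 202 bp), and its part in the edge was not tested. In the colony libraries and NRAS Q61K 2 the last bases belonged to a separate peak of 401, 631 and 151 bp. The peak over the start itself ended 5980 and 5893 bp after it in the colony libraries and 5938 bp after it in NRAS Q61K 2.

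In the test of covered length across all regions, where each library is centred on the regions marked throughout, the MYC domain was wider in resistant than in parental cells (log2 change 0.32, SE 0.05, limma adjusted p = 0.00326). The median over the common regions was -0.19 and -0.22 in the resistant libraries on the log2 scale, so that value is relative to a general narrowing. Without the centring the change was 0.12 and the call was lost (adjusted p = 0.0684). Colony cells did not pass against parental cells (0.12, SE 0.05, adjusted p = 0.165), except without parental 2 (0.19, adjusted p = 0.0380). The call of resistant over colony cells (0.19, SE 0.05, adjusted p = 0.0361) turned to -0.030 without centring (adjusted p = 0.817) and was lost when any 1 library of either group was left out (adjusted p 0.0653 to 0.160) or either NRAS Q61K library (0.0561 and 0.0562). NRAS Q61K cells against GFP cells gave 0.06 (SE 0.05, adjusted p = 0.686), and GFP against parental cells -0.05 (SE 0.05, adjusted p = 0.724).

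While the domain kept its breadth, its summit was lower in drug-treated cells. The authors' fold of the MYC summit over the local background was 23.8 and 21.4 in the parental pair, 17.1 and 14.8 in the colony pair, 14.6 and 13.7 in the resistant pair, 25.6 and 29.5 with GFP, and 24.0 and 23.8 with NRAS Q61K. The implied number of reads over that summit was 142 and 96 in the parental pair, 92 and 87 in the colony pair, 85 and 81 in the resistant pair, 113 and 116 with GFP, and 116 and 104 with NRAS Q61K. By both measures the drug-treated libraries lay below all others without overlap, although read numbers are not scaled for depth. The implied local background there was 4.44 and 4.96 reads in colony and 4.89 and 4.96 in resistant libraries. In untreated libraries it was 5.01 and 3.54 in the parental pair, 3.46 and 2.97 with GFP, and 3.87 and 3.40 with NRAS Q61K. Folds were lower in general: the median over the 12087 common regions was 12.8 and 12.6 in the parental pair, 10.5 and 11.0 in the colony pair, and 10.0 and 9.74 in resistant libraries. That median was 15.2 and 16.5 with GFP and 14.7 and 14.5 with NRAS Q61K, so the medians did not overlap either. Within that common set the MYC summit stood at the 99.9th and 99.4th percentile in parental, the 97.0th and 83.8th in colony, the 93.6th and 91.1st in resistant, the 99.3rd and 98.7th in GFP, and the 99.1st and 99.0th in NRAS Q61K libraries. The rank of the MYC summit among the same regions was thus lower in all 4 drug-treated libraries than in the other 6. These folds belong to each library alone and were not tested. How many of the common regions separate in the same way, by fold or by rank, was not counted. The summit itself stayed in place, 642 to 918 bp after the MYC start in all 10 libraries.

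**Figure D2:**
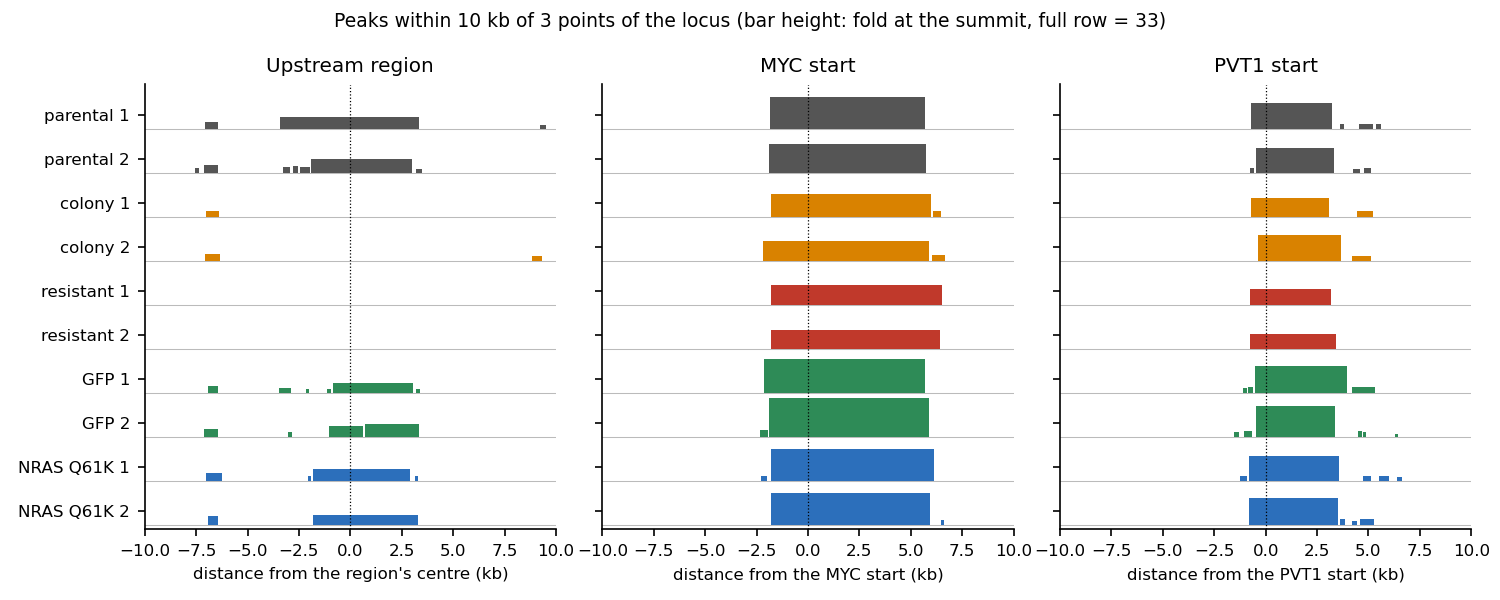
Peaks within 10 kb of the centre of the upstream region, the MYC start and the PVT1 start, in kb; each bar is 1 peak and its height is the authors' fold at the summit. The MYC domain ends farther to the right in colony and resistant libraries than in parental and GFP libraries, resistant libraries have a single peak at PVT1, and the upstream panel is empty for resistant libraries and holds only flanking short peaks for colony libraries.

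At the PVT1 start the main peak was kept in all groups, and the small peaks beside it varied. The region (128805245 to 128813390) had 5154 and 4623 bases under peaks in the parental pair, 4608 and 4970 in the colony pair, 3958 and 4184 in the resistant pair, 6030 and 4963 with GFP, and 5745 and 5453 with NRAS Q61K. Both resistant libraries lay below the other 8. The peak over the start was 3879 ± 129 bp long in the parental pair, 3928 ± 182 in the colony pair, 4071 ± 160 in the resistant pair, 4156 ± 443 in GFP and 4333 ± 24.0 in NRAS Q61K cells. Its mean length in resistant cells was thus not below that in parental or colony cells, while both resistant peaks were shorter than both NRAS Q61K peaks. The region held 1 peak in each resistant library, 2 in each colony library, 4 in each parental library, and 4 to 6 in the GFP and NRAS Q61K libraries. The resistant libraries had none of the small satellite peaks. The last marked base within 10 kb of the start was 3173 and 3433 bp after it in resistant libraries and 5114 to 6611 bp after it in all others.

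None of the PVT1 start comparisons passed the threshold: -0.05 for colony against parental (SE 0.08, limma adjusted p = 0.752), -0.05 for resistant against parental (SE 0.08, adjusted p = 0.654), -0.0013 for resistant against colony (SE 0.08, adjusted p = 0.990), 0.08 for NRAS Q61K against GFP (SE 0.08, adjusted p = 0.711) and 0.03 for GFP against parental (SE 0.08, adjusted p = 0.859). A stricter threshold of 10 on -log10 q, which drops the satellites in every library, turned resistant against parental to 0.25 (adjusted p = 0.0473) and resistant against colony to 0.27 (adjusted p = 0.0399). Merging only overlapping peaks gave 0.27 for the latter (adjusted p = 0.0333). Without centring the changes were -0.25 for resistant against parental (adjusted p = 0.0893) and -0.22 for resistant against colony (adjusted p = 0.145). With lists of equal length, resistant and colony against parental gave 0.22 (adjusted p = 0.0641) and 0.24 (adjusted p = 0.0706). No direction of change at the PVT1 start held across these settings.

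The fold at the PVT1 summit was lowest in resistant libraries. Its fold was 19.3 and 18.4 in the parental pair, 14.3 and 19.7 in the colony pair, 11.8 and 11.1 in the resistant pair, 19.8 and 22.9 with GFP, and 18.7 and 20.2 with NRAS Q61K. Among the 12087 common regions it stood at the 72.6th and 65.9th percentile in resistant libraries and at the 86.2nd to 98.7th in the other 8. One colony library ranked above both parental libraries and the other below them. The implied reads over the summit were 86 and 87 in resistant and 90 to 120 in the other libraries. The implied local background there was 6.36 and 6.95 reads in resistant and 6.22 and 4.58 in colony libraries. In untreated libraries it was 5.25 and 3.95 in the parental pair, 3.79 and 3.16 with GFP, and 5.08 and 3.85 with NRAS Q61K. The lower fold in resistant libraries thus went with a higher background as well as fewer reads, and the part of each was not tested. The summit lay 599 to 1725 bp after the PVT1 start.

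**Figure D3:**
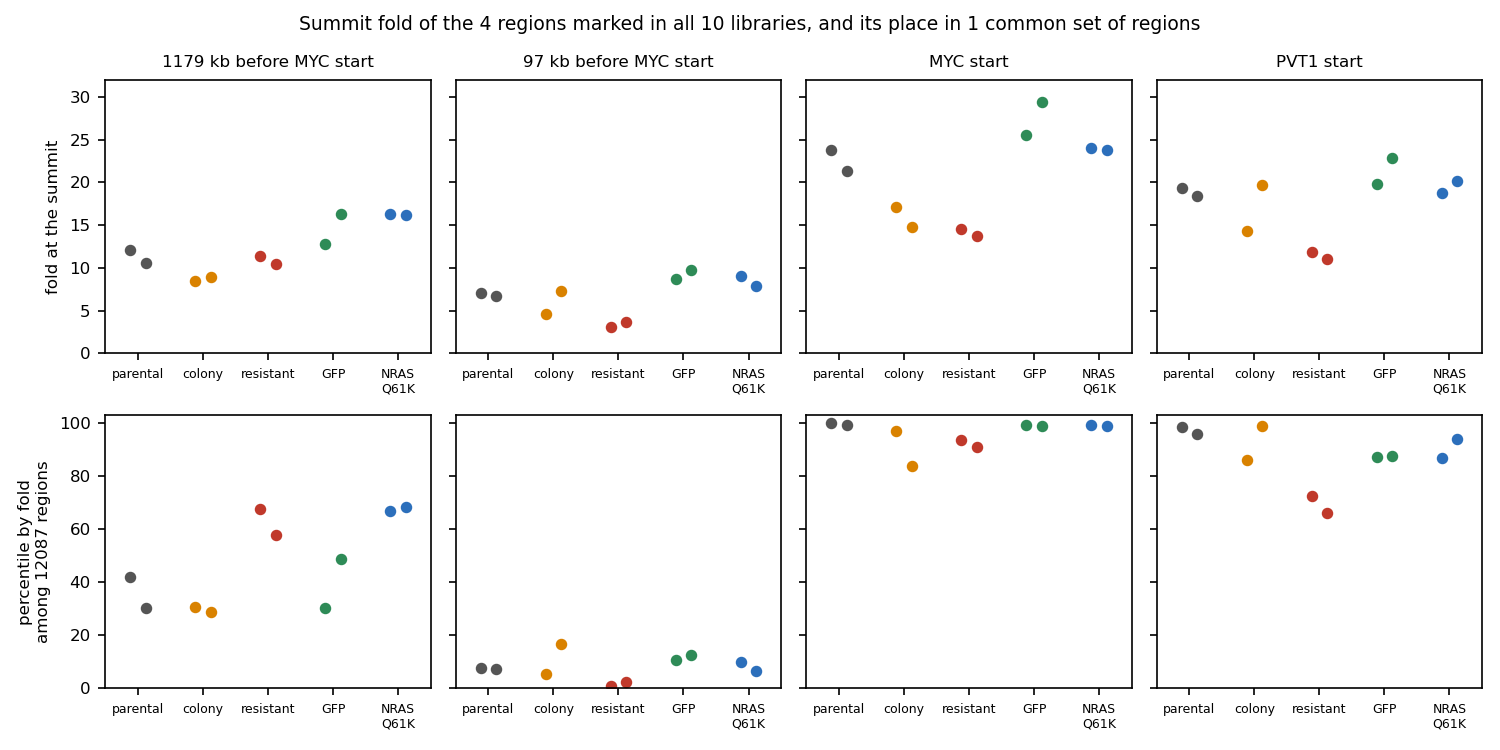
Fold of the summit over local background (upper row) and its percentile among the 12087 regions marked in all 10 libraries (lower row) for the 4 locus regions marked throughout; each point is 1 library. At MYC the drug-treated libraries sit at folds of 13.7 to 17.1 and the others at 21.4 to 29.5, and at PVT1 the resistant libraries have the lowest points in both rows.

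Downstream of its start, the PVT1 side of the window had few of its weak H3K4me3 sites in the lists of drug-treated cells. The 8 regions after the PVT1 start region, 15 to 247 kb from that start, held 45 peaks of 142 to 736 bp with folds of 2.43 to 5.19, far below the summits at MYC and PVT1. Resistant libraries had no peak in any of the 8. Colony libraries had a peak in 1, the region 151 kb after the start. Parental libraries were marked in 4, GFP libraries in 7 and NRAS Q61K libraries in 6. These sites had summits of 13 to 26 reads, close to the weakest peaks that were called anywhere, so at this depth their absence from a list does not show absence of the mark.

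The region 113 kb after the PVT1 start (128919434 to 128920702) had a peak in all untreated libraries. It had 989 and 508 bases under peaks in the parental pair, 682 and 698 with GFP, and 478 and 826 with NRAS Q61K, and none in the colony and resistant libraries. Both drug comparisons with parental cells passed the threshold (limma adjusted p = 0.00157 for colony and 0.00187 for resistant). Pairs with no peak, as in both drug groups here, add little to the spread that these tests use. The calls held under the 19 alternatives in which the region was tested, and the region did not exist under a stricter peak threshold or with lists of equal length. The region 151 kb after the start (128956759 to 128958111) behaved otherwise. It had 520 and 248 bases in the parental pair, 320 and 521 in the colony pair, 631 and 650 in GFP and 463 and 383 with NRAS Q61K, and none in resistant libraries. It was narrower in resistant than in parental (adjusted p = 0.00766) and colony cells (adjusted p = 0.00656), and both calls were lost with lists of equal length (adjusted p = 0.658 and 0.698) and with a pseudocount of 1000 bp (0.0732 and 0.0620).

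The other sites after the PVT1 start were marked in 1 to 5 libraries each. Those in 1 library were not tested, and the others passed in no comparison. The region 60 kb after the start (128865936 to 128867429) had 444 bases in parental 1, 514 and 475 in the GFP and 345 and 167 in the NRAS Q61K libraries. The region 105 kb after it (128910125 to 128912512) had 653 bases in parental 2, 919 in GFP 2 and 904 and 628 in the NRAS Q61K libraries.

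Between the upstream cluster and MYC, 1 region 97 kb before the MYC start (128650736 to 128652273) was marked throughout and shrank in resistant cells. It had 1246 and 1179 bases under peaks in the parental pair, 1024 and 898 in the colony pair, 341 and 399 in the resistant pair, 1379 and 1301 with GFP, and 1250 and 1370 with NRAS Q61K. Resistant libraries lay far below the rest, and colony libraries lay below all 6 untreated ones. The change was -1.11 for resistant against parental (SE 0.15, limma adjusted p = 9.05e-04), called under all 22 alternatives, and -0.80 for resistant against colony (SE 0.15, adjusted p = 0.00533). The second call was lost with a stricter peak threshold (adjusted p = 0.358) and when only the 4 libraries compared were fitted (0.0764). Colony against parental did not pass (-0.31, SE 0.15, adjusted p = 0.207). Its summit fold was 7.02 and 6.68 in the parental pair, 4.61 and 7.32 in the colony pair, and 3.07 and 3.70 in resistant libraries.

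The upstream region was a broad domain in every library without drug. It had 6775 and 6253 bases under peaks in the parental pair, 5002 and 4462 in GFP and 5025 and 5120 with NRAS Q61K, and no peak in either colony or either resistant library. In covered bases its parental mean stood at the 97.0th percentile among 16832 regions with a peak in each parental library, next to the MYC domain at the 98.4th. Its summit was lower than that of MYC, with folds of 8.84 and 9.98 in the parental pair, 7.59 and 9.49 in GFP and 9.01 and 7.42 with NRAS Q61K. The implied summit height was 60 and 51 reads in the parental pair, 35 and 38 in GFP and 53 and 39 with NRAS Q61K.

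With weaker peaks left out or lists cut to equal length the domain kept 4093 bp in GFP and 4910 bp in NRAS Q61K cells.

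The comparison of the transgene cells with each other uses neither the parental nor the drug-treated values that chose the region. NRAS Q61K against GFP cells gave a log2 change of 0.15 (SE 0.11, limma adjusted p = 0.573). Both GFP libraries had fewer marked bases than both parental libraries, which is a description without a test, since the parental values chose the region. The first long peak began at 127840515 and 127842028 in the parental pair, at 127843088 and 127842876 in GFP and at 127842124 and 127842125 with NRAS Q61K. GFP libraries had short peaks of 145 to 593 bp before it, as did parental 2, and NRAS Q61K 1 had a peak of 173 bp. Parental 2 and the NRAS Q61K libraries thus differed little in where the long peak began.

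Short sites beside the upstream domain did not all follow it. The region 911 kb before MYC (127836363 to 127837678) ends 2779 bp before the domain and was marked in both colony libraries. It had 666 and 914 bases in the parental pair, 642 and 695 in the colony pair, 512 and 702 in GFP and 756 and 501 with NRAS Q61K, and none in resistant libraries. Its colony summits, at folds of 4.47 and 5.03, stood beside parental ones at 4.92 and 5.74. Resistant against parental (limma adjusted p = 5.66e-04) and resistant against colony (adjusted p = 0.00104) passed, and colony against parental did not (-0.20, SE 0.25, adjusted p = 0.662). The resistant calls were lost with the stricter peak threshold (adjusted p = 0.0613 and 0.393).

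The region 930 kb before MYC (127817387 to 127818759) had 935 and 946 bases in the parental pair, 620 in colony 1, none in colony 2 or the resistant libraries, 931 and 1302 in GFP and 1049 and 864 with NRAS Q61K. Resistant against parental passed (adjusted p = 0.0168) and did not do so when any 1 library of the 2 groups was left out (0.0666 to 0.0785). With the stricter peak threshold the change was 0.19 (adjusted p = 0.573). A site 895 kb before MYC (127852749 to 127853456), past the far end of the domain, was marked in parental 1 over 286 bp and colony 2 over 489 bp alone. A site 758 kb before MYC (127989854 to 127990302) had 269 and 195 bases in the parental pair alone. That pair is the only reason it met the minimum of 2 libraries, so its calls as narrower in colony, resistant and GFP cells were fixed by the filter and are not read as results.

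At the far end of the window, the region 1179 kb before MYC (127566173 to 127571524) was wider in resistant cells. It had 3312 and 3259 bases under peaks in the parental pair, 3850 and 3365 in the colony pair, 4778 and 4263 in the resistant pair, 3712 and 3920 with GFP, and 4396 and 4326 with NRAS Q61K. It was wider in resistant than in parental (log2 change 0.63, SE 0.09, limma adjusted p = 0.00107) and colony cells (0.53, SE 0.09, adjusted p = 0.00286), and both calls held under all 22 alternatives, no centring included. The resistant libraries overlapped with the NRAS Q61K libraries in covered bases. Its summit fold was 12.1 and 10.6 in parental and 11.4 and 10.4 in resistant libraries. Among the 12087 common regions that fold stood at the 41.9th and 30.4th percentile in parental and at the 67.6th and 57.7th in resistant libraries, so its rank was higher while its fold overlapped.

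**Figure D4:**
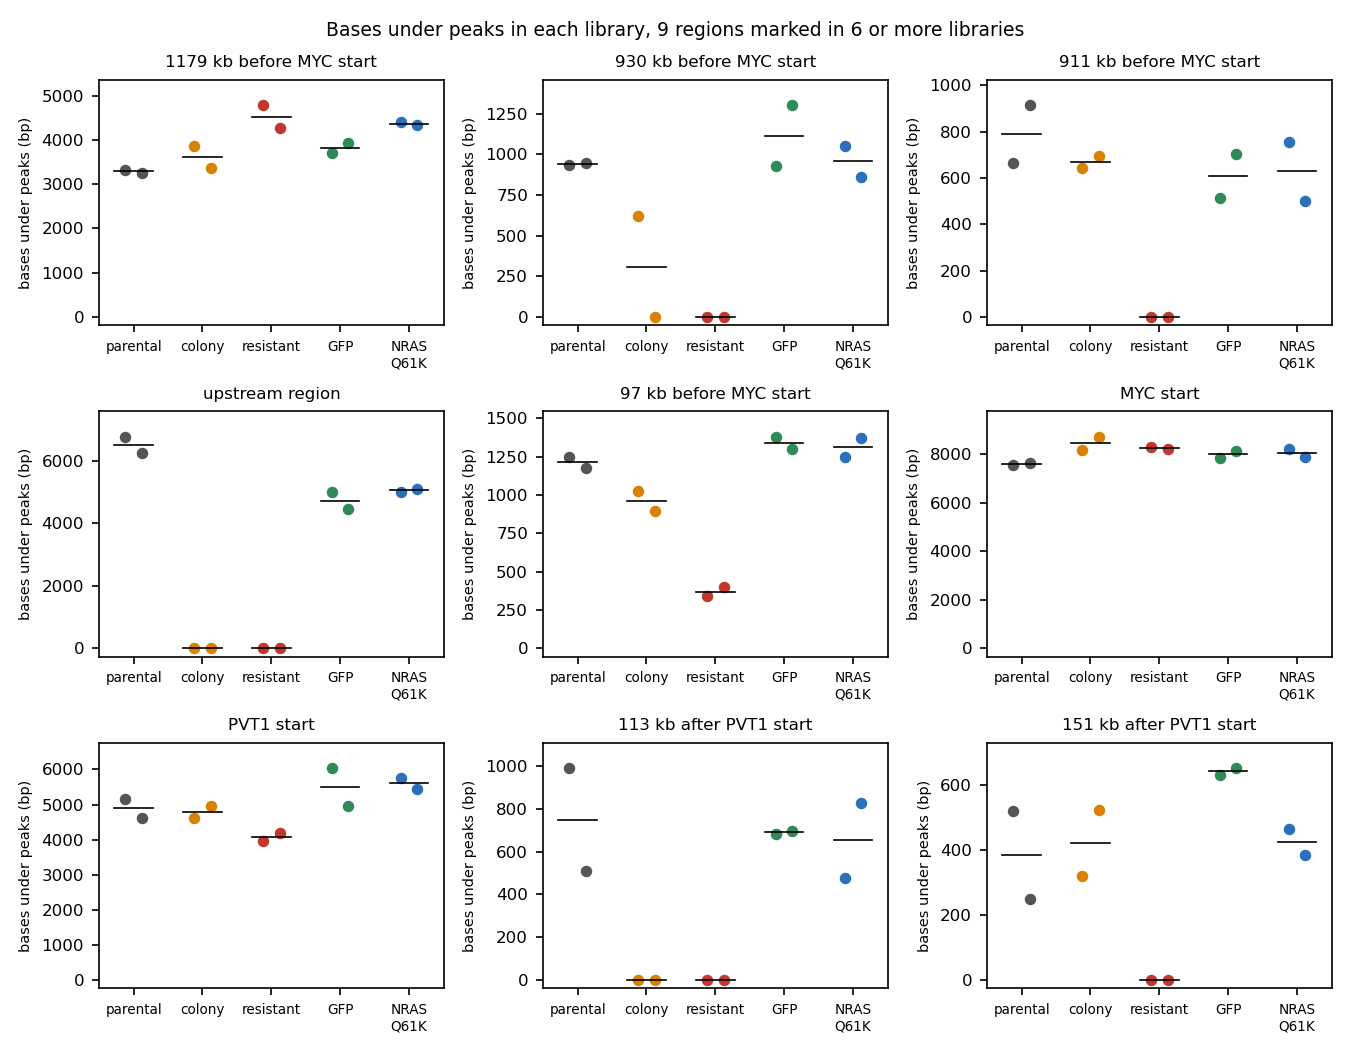
Bases under peaks (bp) in each of the 10 libraries for the 9 locus regions marked in 6 or more libraries; points are libraries and short lines are group means of 2. The MYC and PVT1 starts stay high in all groups, the upstream region and the site 113 kb after PVT1 are at 0 in all 4 drug-treated libraries, and the sites 911 kb before MYC and 151 kb after PVT1 are at 0 in the resistant pair.

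The counts at the locus were set beside those of the whole genome. Of the 16 locus regions in the fit, 15 could be tested for drug against parental cells once the upstream region was set apart. The site 758 kb before MYC is among the 15 through the parental pair alone, and leaving it out gives 14. In colony cells 0 were wider and 2 narrower (1 without that site), where 4.29% and 16.7% of the 23153 regions tested were wider and narrower. In resistant cells 2 were wider and 6 narrower (5 without that site), where the genome had 7.93% and 20.6%. The median log2 change over the 15 was -0.85 in resistant and -0.20 in colony cells, against -0.07 and -0.05 over all regions tested. The resistant median is the value of the region 105 kb after the PVT1 start. Of the parental and resistant libraries, parental 2 alone has a peak there. That median thus depends on the added 200 bp and is not read as a result. For resistant against colony cells 2 of 16 were wider and 3 narrower, beside 11% and 11.5% of all regions. In the fit 8 of those 16 regions, the upstream region among them, were empty in all 4 libraries and had the centring difference of 0.22 as their change.

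By presence alone, of the 10 locus regions marked in both parental libraries, colony cells lost 3 and resistant cells 6, the upstream region included in both, while 15.6% and 22% of such regions were lost over the genome. Resistant cells lost 2 of the 6 regions marked in both colony libraries, beside 8.19% over the genome. Of unmarked locus regions, 0 of 7 were gained in colony and 0 of 7 in resistant cells, beside 1.71% and 4.63% over the genome. The gains were 0 of 13 in resistant over colony cells, beside 5.18%, and 0 of 3 in NRAS Q61K over GFP cells, beside 15.5%. Counts of 0 among so few regions show no difference from those shares. The site 758 kb before MYC, marked in the parental pair alone, is among the losses of colony and resistant cells against parental cells. With the upstream region apart, the losses were 2 of 9 in colony and 5 of 9 in resistant cells. With lists of equal length they were 1 of 6 and 2 of 6, beside 6.35% and 9.38% over the genome. With the stricter peak threshold they were 0 of 5 and 2 of 5, beside 7.82% and 10.3%. Without parental 2 they were 4 of 12 and 8 of 12, beside 24.6% and 31%. By parental covered bases, the 5 losses of resistant cells stood at the 1.27th to 23.6th percentile of regions marked in both parental libraries. The locus regions kept in resistant cells stood at the 28.5th to 98.4th. The genome shares are not matched for width, so the losses are not read as an excess at the locus.

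No locus region passed the threshold with NRAS Q61K. Limma called 0 of 16 regions for NRAS Q61K against GFP, with 1 at an unadjusted p under 0.05, where 5.06% of all regions were wider and 2.18% narrower. None of the 11 regions marked in both GFP libraries was lost, beside 3.18% over the genome. With so few regions, these counts of 0 show no difference from the genome shares. GFP against parental cells gave 0 wider and 2 narrower regions of 16, beside 2.67% and 1.69% of all regions. Those 2 are the upstream region, which its parental values chose, and the site 758 kb before MYC, so nothing is read from them, and 0 of the 14 others were called. By presence GFP cells lost 1 of 10 and gained 0 of 7, beside 1.64% and 9.79% over the genome. That loss is again the site 758 kb before MYC, so nothing is read from it.

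**Figure D5:**
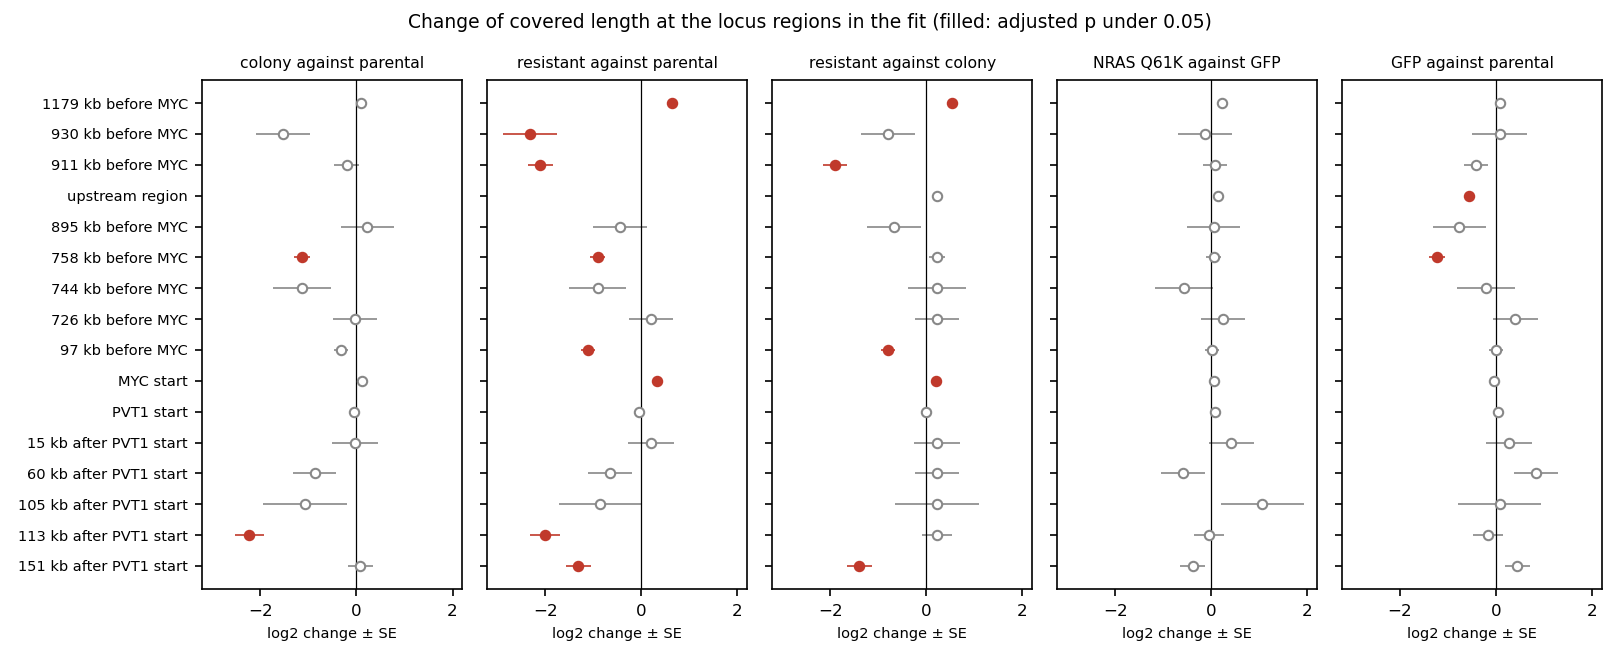
Log2 change of covered length with its standard error for the locus regions in the fit, by comparison; filled points have a limma adjusted p under 0.05, and the upstream region is left out of the drug comparisons with parental cells. Filled points gather in the resistant panels, and the NRAS Q61K panel has none. Values for regions with no peak in a group depend on the added 200 bp, and the filled points at 758 kb before MYC and at the upstream region are not read as results.

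Regions elsewhere with the most similar pattern were found by Pearson correlation of the centred covered length over the 10 libraries. For the MYC domain they lay at 13q13.3 (chromosome 13, 38922594 to 38926156; r = 0.982), 10q25.2 (chromosome 10, 112630433 to 112636073; r = 0.973) and 8q22.3 (chromosome 8, 104510682 to 104514623; r = 0.972). At 13q13.3 the parental libraries had 2576 and 2617 bases and the resistant libraries 3447 and 3277. For the upstream region they were 1p13.3 (chromosome 1, 108226928 to 108231284; r = 0.999), 7q21.11 (chromosome 7, 80377523 to 80378553; r = 0.999) and 1p31.3 (chromosome 1, 67026420 to 67030411; r = 0.998), each marked in all 6 untreated and in no drug-treated library. For the PVT1 start the closest reached only r = 0.901, 0.895 and 0.892 and were weak sites empty in 6 of the 10 libraries. These are the highest of all regions tested outside the window, so the size of r has no reading of its own.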

How the data were processed

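H3K4me3 chromatin immunoprecipitation was sequenced with matched inputs, 20 samples in all; the 10 inputs were not used. The authors deposited 1 peak list per H3K4me3 library, on GRCh37. MACS2 2.1.2, BWA, SAMtools and deepTools 2.5.4 are listed, without roles, per the submitters' processing notes. In the deposited lists the score is 10 times the −log10 q-value, the fold is the ratio of summit to local background, and the −log10 p-value belongs to the same summit, per the file layout. The sources used here do not say how inputs and duplicates were handled. Positions were counted from 1.

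Summit reads and background were solved from the deposited fold and −log10 p-value under a Poisson tail, with 1 added to both in the fold, and every peak gave a whole number of reads within 0.0005 in −log10 p. They are implied values, and no list gives total depth. Of all peaks, 589 outside the 22 autosomes and X were left out. Peaks within 1000 bp were merged over the 10 libraries. Log2(bases under peaks + 200) was centred per library on regions marked in all 10 and fitted over regions marked in at least 2, with limma 3.58.1 (R 4.3.3), 5 group means, a trend, and Benjamini-Hochberg adjustment over all regions within a comparison at 0.05. A pair of libraries with no peak in a region adds little to the spread used in its tests, so p-values there are to be read with care. The fit was tested on simulated data. A region was lost or gained when both libraries of 1 group and neither of the other had a peak. Bands came from the hg19 table of circlize 0.4.16. Other steps used Python 3.11.15, scipy 1.17.1 and matplotlib 3.10.9.

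Named regions are the 3 of the rule and all others called, lost or gained; 3 weak sites, 895 kb before MYC and 60 and 105 kb after the PVT1 start, were added after their values were seen. The window, regions and tests were chosen with earlier results of these data known. Alternatives were other peak thresholds, overlaps, merging, pseudocounts, centring, filters and fits, and leaving out each library.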

Additional observations from a re-analysis of the deposited data

Results flagged for a closer look

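At 5 of the 16 locus regions in the fit, resistant and colony cells differed in the direct test (limma, adjusted over all regions). Of these, 2 were wider and 3 narrower in resistant cells, beside 11% and 11.5% of all regions tested. The region 1179 kb before MYC (0.53, adjusted p = 0.00286) and the MYC start (0.19, adjusted p = 0.0361) were relatively wider in resistant cells, the MYC start not without centring, where its change was -0.030. The region 911 kb before MYC (-1.90, adjusted p = 0.00104), the region 97 kb before MYC (-0.80, adjusted p = 0.00533) and the site 151 kb after the PVT1 start (-1.39, adjusted p = 0.00656) were narrower. The values at 911 and 151 kb depend on the added 200 bp, since the resistant libraries have no peak there. The MYC call was also lost with a pseudocount of 1000 bp and without a trend. The calls at 911 and 97 kb were lost with the stricter peak threshold. At 97 kb the call was also lost when only the 4 libraries compared were fitted. At 151 kb it was lost with lists of equal length and with a pseudocount of 1000 bp.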

How the results depend on the processing

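Width calls at the MYC start for resistant against parental cells kept their side of the threshold under 21 of 22 alternatives, the exception being no centring (0.12, adjusted p = 0.0684). For resistant against colony cells the MYC change was 0.15 with a pseudocount of 1000 bp, 0.19 without a trend and -0.030 without centring, none of them called, and 0.16 to 0.22 with 1 library left out. For colony against parental cells it was 0.055 to 0.19 with 1 library left out and was called only without parental 2. At the PVT1 start, peaks of -log10 q of at least 10 gave 0.25 for resistant against parental and 0.27 for resistant against colony cells, and merging only overlapping peaks gave 0.27 for the latter. The cause was not tested.

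The number of locus regions called against parental was 2 for colony, 8 for resistant and 2 for GFP cells, and it was 5 for resistant against colony cells. With the 758 kb site and upstream region apart, colony had 0 wider and 1 narrower, resistant 2 and 5, GFP 0 and 0. Over all regions tested, 4.29% were wider and 16.7% narrower in colony and 7.93% and 20.6% in resistant cells. The shares were 2.67% and 1.69% in GFP cells and 11% and 11.5% for resistant against colony cells. Genome shares under the alternatives are not given, so the counts below show only how the locus counts moved. With the stricter peak threshold colony gave 0, resistant 4, GFP 1 and resistant against colony 3. With lists of equal length colony gave 1, resistant 5 and GFP 0. With an overlap of at least 200 bp colony and GFP gave 1 each. GFP also gave 1 with a pseudocount of 50 bp and 1 without centring, and resistant against colony gave 3 with a pseudocount of 1000 bp. Where only regions in all 10 libraries were tested, so with fewer regions, colony and GFP gave 0 and both resistant comparisons 3. With only the 4 libraries compared, GFP gave 0 and resistant against colony 12, where regions empty in all 4 differ by the centring alone, with little spread between replicates. With 1 library left out the counts ran from 1 to 4 for colony (1 without parental 1, 4 without parental 2), 6 to 8 for resistant, 4 to 5 for resistant against colony and 0 to 2 for GFP (0 without parental 2 or either resistant library). With the replicate block the GFP count was 1, and no other listed result moved; replicate differences correlated at -0.0206 to 0.0286 between groups, so replicates share only a number.

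Of the losses given first here, those against parental cells include the site 758 kb before MYC. Against parental cells, the upstream region apart, colony lost 2 of 9 and resistant 5 of 9 regions, beside 15.6% and 22% over the genome. Resistant lost 2 of 6 against colony, NRAS Q61K 0 of 11 and GFP 1 of 10, beside 8.19%, 3.18% and 1.64%. With the stricter threshold the first 3 were 0 of 5, 2 of 5 and 0 of 3, beside 7.82%, 10.3% and 4.7%. GFP lost 0 of 6 there, beside 0.949%, and gained 1. With lists of equal length the first 3 were 1 of 6, 2 of 6 and 1 of 5, beside 6.35%, 9.38% and 6.74%. GFP lost 0 of 7 there, beside 2.98%. For the gains and the counts below no genome shares are given here, so they show only how the locus counts moved. With an overlap of at least 200 bp colony lost 1, NRAS Q61K 1 and GFP 0. With 1 library left out the losses were 2 to 4 in colony, 5 to 8 in resistant, 2 to 3 in resistant against colony, 0 to 3 in NRAS Q61K (3 without GFP 1) and 1 to 2 in GFP cells, and GFP gained 0 to 3 and NRAS Q61K 0 to 1. The upstream region covered 5836 bp in parental, 4093 bp in GFP and 4910 bp in NRAS Q61K cells with the stricter threshold, and 4093 and 4910 bp in the last pair with lists of equal length.

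No list gives total reads, so precision is limited by unknown depth and by 2 libraries a group; weak sites with summits of 13 to 26 reads are near the limit of calling.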
